A study of Mus musculus with 10 samples.

Results

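The genes described here are 41 genes of the cell cycle and of DNA replication, given as a list and found on the arrays through the accession of each probe. They comprise 9 genes of replication licensing and the replication fork, 13 genes of the passage from G1 into S phase, and 19 genes of mitotic or meiotic division. Of the 41 genes, 40 had a probe that could be tested, among 16739 genes tested on the arrays. Earlier results of these data were known when the list was drawn up.

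RNA of single testes from 10 male C57BL/6N mice, 6 weeks (42 days) old, was hybridised to 1-colour Agilent mouse arrays, 1 array per animal. The mothers of the 5 R males were given 50% of the control mothers' food intake from 6.5 days post coitum. The R pups were nursed by unrelated control dams. The 5 C males were sons of dams fed freely throughout pregnancy and stayed with their own mothers, so prenatal restriction and cross-fostering cannot be told apart. Both groups ate regular chow freely after weaning. Which animals were litter mates was not given in these sources, and the p-values treat the 10 males as independent. All values are log2 signals, meaning the log2 of a probe's processed intensity minus the 75th percentile of its array. A change is the mean of the R arrays minus the mean of the C arrays, a gene is represented by its brightest tested probe, and a call is a Benjamini-Hochberg adjusted p under 0.05 in limma over all probes tested. The number of arrays limits the precision of every change.

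Before a cell copies its DNA, the loading factors Cdc6 and Cdt1 place the ring-shaped Mcm helicase on replication origins in G1, and cyclin-dependent kinases then start the forks. E2F factors, held back by the retinoblastoma family until cyclin D and cyclin E kinases release them, drive many of these genes, whereas many division genes carry the CHR and CCAAT motifs in their promoters. In the testis, spermatogonia divide by mitosis, preleptotene spermatocytes pass through the last S phase, and spermatocytes complete both meiotic divisions with a partly distinct set of cyclins and kinases.

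Across the arrays, the 75th percentile of the processed intensity lay between 804 and 1019, between 54.6% and 65.9% of probes were well above background, and 0 spots were saturated. Defining genes of testis cells were above background: 14 of 14 spermatocyte genes, 12 of 12 elongating spermatid genes and 19 of 20 Sertoli genes could be tested. The Sertoli gene Amh stayed near background on each of the 10 arrays. On the first principal component, which held 60.4% of the variance, the R arrays lay between -49.2 and -33.6. C replicate 2 stood apart at 123, beyond the other C arrays at 13.9 to 29.5. R replicate 1 and C replicate 5 stand on the opposite sides in the authors' deposited table, against their labels. Groups follow the labels throughout. Slide 1 held R replicates 1 to 4 with C replicates 1 and 2, and slide 2 held R replicate 5 with C replicates 3 to 5.

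In the testes of R males, 18 of the 40 tested genes were lower and 6 were higher, and 16 were not called. Over all genes tested, 20.6% were called lower and 14.9% were called higher, or 35.6% in either direction. The median change was -0.22 over the 40 genes and -0.03 over all genes. Called folds were small, from 1.17-fold lower for Ccnb2 to 1.93-fold lower for Cdt1, and from 1.14-fold higher for Mcm7 to 1.69-fold higher for Cdk6. Every R array lay below every C array for 15 genes and above every C array for 4, against 16.5% and 12.6% of all genes. In whole testis, fewer cells of a type and less RNA per cell cannot be told apart.

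Calls were then counted by class. The replication class had 7 of 9 lower and 1 higher, with a median change of -0.54. The G1/S class had 5 of 13 lower and 4 higher, with a median of -0.38. The division class had 6 of 18 lower and 1 higher, with a median of -0.11. Mean log2 signals over the genes of a class averaged 0.62 on the R arrays and 1.10 on the C arrays for replication. For G1/S they were -0.44 and -0.31, and for division 1.76 and 1.91. By this measure the gap was smallest for G1/S. With the mean of each gene's probes in place of the brightest, the medians were -0.54 for replication, -0.083 for G1/S and -0.17 for division, so the order of G1/S and division turned. Scaling each array to its median moved the median of all genes to -0.23. Minus the all-gene median, the class medians were -0.52, -0.36 and -0.09 in that order, a difference that by construction is the same under either scale. The difference between classes was not tested. Under the study's own criterion, which adds a fold above 1.5 or under 0.66, 8 genes remained lower, namely Mcm2, Mcm3, Mcm4, Cdt1, Ccna2, Rbl1, Cdk1 and Mad2l1, and Cdk6 remained higher.

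**Figure D1:**
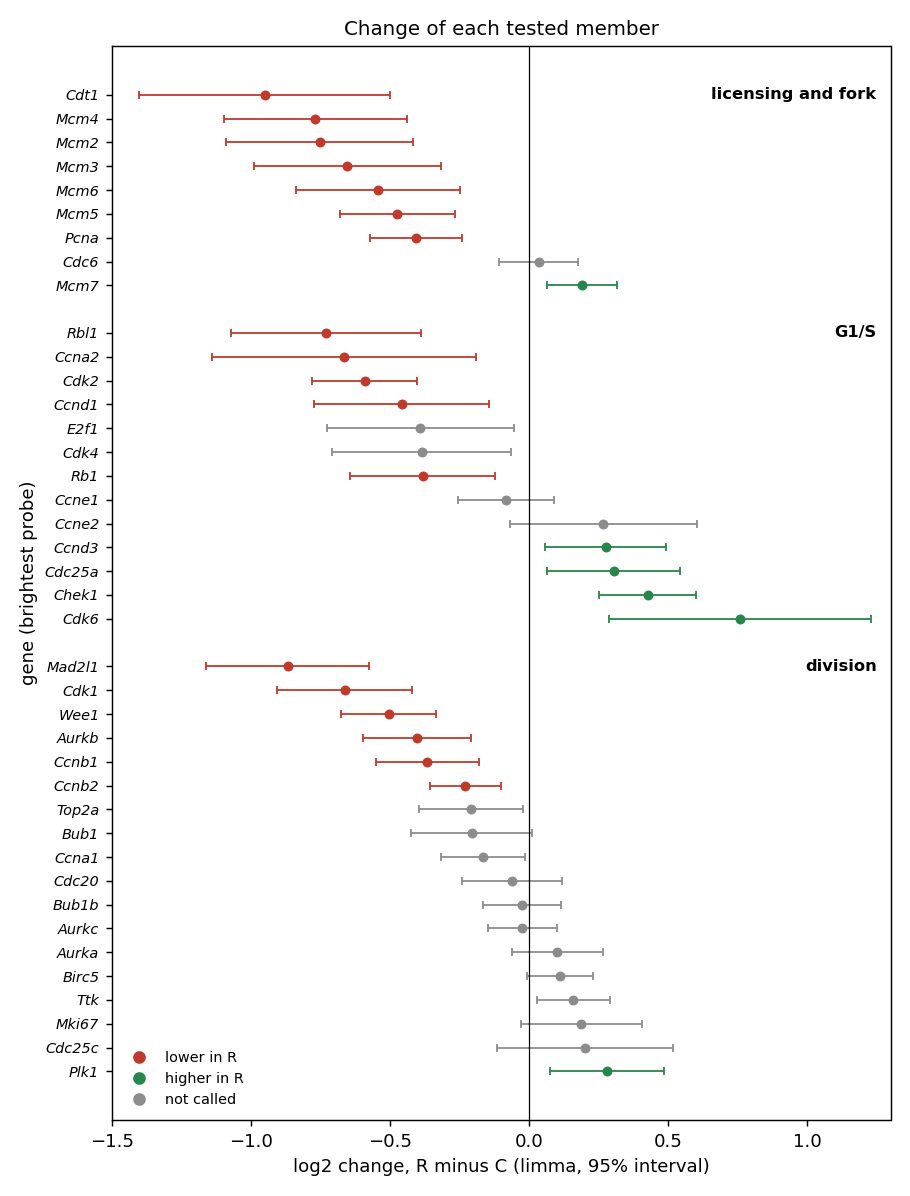
Change of each tested gene on the horizontal axis, as the mean log2 signal of 5 R arrays minus that of 5 C arrays, with its unadjusted 95% interval, genes grouped by class. Colours mark genes called lower, called higher and not called; 7 of 9 replication genes lie below 0 and are called, whereas the division genes run from Mad2l1 at -0.87 to Plk1 at 0.28.

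Without C replicate 2, 19 of the genes were called lower and 4 higher, and all 18 lower genes kept their call. Of all 16739 genes, 3225 were lower and 2486 higher without C replicate 2. That array was the highest of the C arrays in 15 of the 18 genes, and the class medians without it were -0.42, -0.25 and -0.08. Without R replicate 1 and C replicate 5, 13 genes were lower and 1 higher, beside 1701 lower and 958 higher of all 16739 genes. Under the grouping of the authors' deposited table, which exchanges these arrays, 0 were lower and 0 higher in limma. Over all 16739 genes that grouping also gave 0 lower and 0 higher. Among the 40 genes, 3 had an unadjusted p under 0.05, and the lowest limma adjusted p was 0.461. All 18 lower genes had the same sign within slide 1, where 16 were called and 3788 of all 16739 genes were lower. The arrays of slide 1 are among those that gave the 18 calls, so this is no independent check. Its only C arrays are C replicates 1 and 2. Slide 2 held 1 R array, so its changes are given without calls. With slide as a block, all 18 stayed called, and 4795 of all 16739 genes were lower.

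Promoter windows of Mcm5, Mcm6, Mcm7 and Cdt1, of which Mcm7 alone was not lower, are shown as examples that hold a match to the E2F motif. In RefSeq windows of GRCm38.p6 from 250 bases before to 50 bases after a gene's start, letters TTTCCCGC, TTTCGCGC, TTTGCCGC and TTTGGCGC were searched on both strands, and matches can overlap. Of 8 replication genes with a window, 6 (75%) held a match, against 3 of 9 G1/S genes (33.3%), 1 of 16 division genes (6.25%) and 2.6% of 27025 genes with a window. Windows were at hand for 33 of the 41 genes. Mcm3 and Cdc6 also held a match and are not printed, whereas Mcm2, Pcna and a second window of Mcm7 held none. Capitals mark E2F matches, and a run of 12 capitals holds 2 overlapping matches, 1 on each strand.
Mcm5, chr8:75109259-75109558 (plus strand): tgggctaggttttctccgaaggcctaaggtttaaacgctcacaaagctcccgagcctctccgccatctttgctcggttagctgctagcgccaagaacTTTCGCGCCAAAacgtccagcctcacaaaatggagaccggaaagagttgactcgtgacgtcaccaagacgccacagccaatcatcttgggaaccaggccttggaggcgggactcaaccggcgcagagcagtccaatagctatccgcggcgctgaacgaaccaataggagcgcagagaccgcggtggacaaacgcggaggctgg
Mcm6, chr1:128359656-128359955 (minus strand): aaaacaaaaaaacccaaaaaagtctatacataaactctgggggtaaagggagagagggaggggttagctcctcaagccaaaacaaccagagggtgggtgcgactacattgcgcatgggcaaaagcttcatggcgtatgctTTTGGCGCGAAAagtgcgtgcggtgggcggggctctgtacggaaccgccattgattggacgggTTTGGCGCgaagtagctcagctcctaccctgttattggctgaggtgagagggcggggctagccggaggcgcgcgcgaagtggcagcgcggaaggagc
Mcm7, chr5:138171834-138172133 (minus strand): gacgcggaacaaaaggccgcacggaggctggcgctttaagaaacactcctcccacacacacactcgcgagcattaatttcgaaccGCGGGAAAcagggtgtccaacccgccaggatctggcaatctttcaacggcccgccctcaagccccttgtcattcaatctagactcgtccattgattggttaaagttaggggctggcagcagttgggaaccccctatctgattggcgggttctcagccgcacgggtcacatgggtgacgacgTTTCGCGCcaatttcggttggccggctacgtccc
Cdt1, chr8:122567765-122568064 (plus strand): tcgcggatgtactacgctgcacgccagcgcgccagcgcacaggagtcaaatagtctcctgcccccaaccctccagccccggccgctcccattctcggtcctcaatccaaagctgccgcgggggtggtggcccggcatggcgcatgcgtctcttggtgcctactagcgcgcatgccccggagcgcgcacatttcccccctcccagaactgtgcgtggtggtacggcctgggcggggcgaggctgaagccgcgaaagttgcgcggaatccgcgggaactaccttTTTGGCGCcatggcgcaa
Of the 10 genes with an E2F match, 7 were called lower, 2 higher and 1 was not called. Of these 10 genes, 6 are replication genes, and the lower ones include Rbl1, whose probes were called in opposite directions. Of the 23 genes without one, 5 were lower, 4 higher, 13 were not called and 1 was not tested. Over all genes tested, 20.6% were lower and 14.9% higher, and calls over all genes with a match were not counted. A match describes letters in the window only.

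Of the 6 helicase subunits, 5 fell in R testes. Mcm2, a subunit of the hexameric helicase, had log2 signals of -2.14, -1.91, -2.15, -2.23 and -2.18 on the R arrays and -1.43, -0.79, -1.57, -1.66 and -1.40 on the C arrays. All R arrays lay below all C arrays. The change was -0.75 ± 0.15 (SE, n = 5 per group), 1.69-fold lower, with limma adjusted p = 0.0057, and it was -1.0 within slide 1 and -0.64 within slide 2.

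Mcm3 had 0.85, 1.10, 0.83, 0.98 and 0.87 on the R arrays and 1.65, 2.15, 1.41, 1.29 and 1.38 on the C arrays. The groups did not overlap, and the change was -0.65 ± 0.15 (SE, 1.57-fold lower, limma adjusted p = 0.00975). Its other tested probes had changes of -0.73 and -0.83. The change was -0.96 within slide 1 and -0.50 within slide 2.

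Mcm4 had -0.30, -0.07, -0.29, -0.27 and -0.30 on the R arrays and 0.59, 1.08, 0.37, 0.19 and 0.38 on the C arrays. Its change was -0.77 ± 0.15 (SE, 1.70-fold lower, limma adjusted p = 0.005), again without overlap, and it was -1.07 within slide 1 and -0.61 within slide 2.

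Mcm5, whose promoter is among those printed, had 0.12, 0.22, 0.16, 0.12 and 0.15 on the R arrays and 0.75, 0.91, 0.51, 0.45 and 0.51 on the C arrays. The R arrays formed a narrow band below every C array. Its change was -0.47 ± 0.09 (SE, 1.39-fold lower, limma adjusted p = 0.00519), with -0.68 within slide 1 and -0.34 within slide 2.

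Mcm6 had 1.59, 1.70, 1.62, 1.54 and 1.57 on the R arrays and 2.19, 2.66, 2.0, 1.90 and 1.99 on the C arrays, with no overlap. Its change was -0.54 ± 0.13 (SE, 1.46-fold lower, limma adjusted p = 0.0119), with -0.82 within slide 1 and -0.39 within slide 2.

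The sixth subunit, Mcm7, went the other way. It had 4.07, 4.15, 4.06, 4.16 and 4.22 on the R arrays and 3.96, 3.92, 3.96, 3.97 and 3.89 on the C arrays, so every R array was above every C array. The change was 0.19 ± 0.06 (SE, 1.14-fold higher, limma adjusted p = 0.0247), and 0.17 within slide 1 and 0.28 within slide 2. A second Mcm7 probe had a change of 0.81 (1.75-fold higher, limma adjusted p = 0.00599). When the array median was the scale, the change of the brighter probe was -0.01 and the call was lost, and it was also lost without R replicate 4, R replicate 5 or C replicate 5, where the adjusted p reached 0.0583.

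Cdt1, which loads the helicase, showed the largest decrease of the 40 tested genes. It had -1.68, -1.38, -1.61, -1.63 and -1.71 on the R arrays and -0.64, 0.12, -0.81, -1.19 and -0.74 on the C arrays. All R arrays lay below all C arrays, and the change was -0.95 ± 0.20 (SE, 1.93-fold lower, limma adjusted p = 0.00712). It was -1.32 within slide 1, -0.80 within slide 2 and -0.76 without C replicate 2. Cdc6, the partner loader, was not called, with a change of 0.03 (95% interval -0.11 to 0.18, adjusted p = 0.685). Its second probe had -0.13 (limma adjusted p = 0.0971), with every R array below every C array. Pcna, the sliding clamp of the DNA polymerases, had 3.56, 3.62, 3.67, 3.58 and 3.63 on the R arrays and 3.90, 4.22, 3.95, 3.92 and 4.09 on the C arrays. Its groups did not overlap, and its change was -0.41 ± 0.07 (SE, 1.32-fold lower, limma adjusted p = 0.00407), with -0.45 within slide 1 and -0.36 within slide 2.

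**Figure D2:**
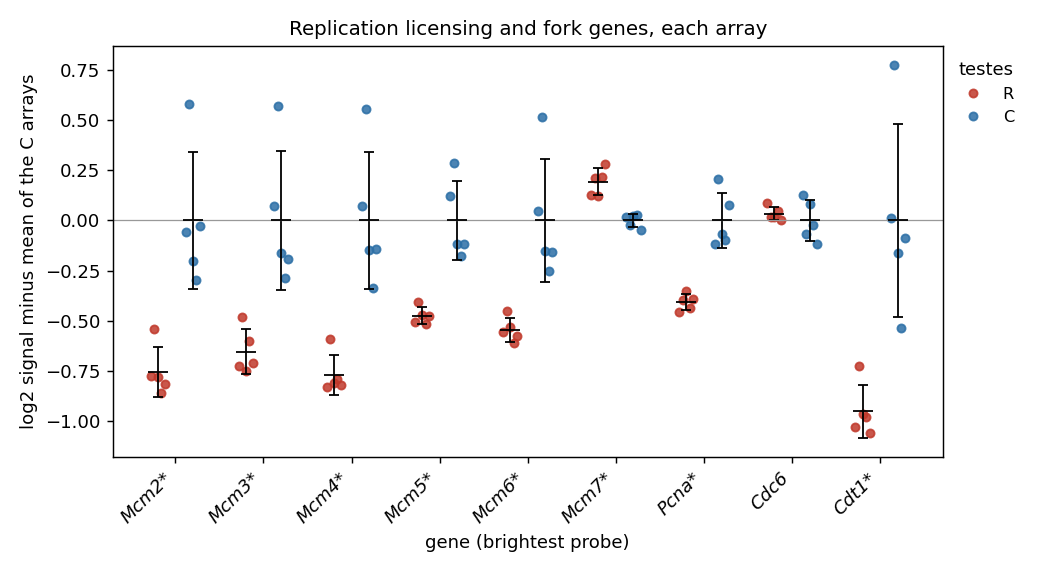
Log2 signal minus the mean of the C arrays for the 9 replication genes, R arrays left and C arrays right within each gene, bars showing the mean ± SD of 5 arrays and asterisks the calls. In 7 genes all R points lie below all C points, Mcm7 lies above, and the groups of Cdc6 overlap.

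Among the G1/S genes, the called genes went in both directions. Cdk2, the kinase that pairs with cyclins E and A, had -1.45, -1.67, -1.29, -1.52 and -1.36 on the R arrays and -0.94, -0.72, -0.94, -0.90 and -0.82 on the C arrays. No R array reached the C range. The change was -0.59 ± 0.09 (SE, 1.51-fold lower, limma adjusted p = 0.00182), with -0.65 within slide 1 and -0.47 within slide 2.

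Cdk6, a cyclin D kinase, was the gene with the largest increase. It had -1.17, -1.20, -1.20, -1.17 and -1.21 on the R arrays and -1.71, -2.88, -1.66, -1.68 and -1.81 on the C arrays. Every R array lay above every C array, and C replicate 2 was far below the other C arrays. The change was 0.76 ± 0.21 (SE, 1.69-fold higher, limma adjusted p = 0.02), 0.53 without C replicate 2, 1.11 within slide 1 and 0.51 within slide 2. The call was lost without R replicate 1 and C replicate 5 together. A second Cdk6 probe had a change of 0.54 (limma adjusted p = 0.0183). Cdk4, the other cyclin D kinase, was not called by its brightest probe, with -0.39 (95% interval -0.71 to -0.06, adjusted p = 0.0571), while its other 2 probes were called lower at -0.48 and -0.61.

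By their brightest probes, the cyclins of this class were called near the threshold or not at all. Ccna2, the S phase cyclin, had -0.96, -0.57, -1.08, -0.88 and -0.98 on the R arrays and -0.23, 0.58, -0.50, -0.70 and -0.29 on the C arrays, which overlap. Its change was -0.67 ± 0.21 (SE, 1.59-fold lower, limma adjusted p = 0.0336), and it was no longer called in 6 of the 10 fits that left out 1 array. The change was -1.05 within slide 1 and -0.48 within slide 2. A second Ccna2 probe had -0.43 (limma adjusted p = 0.00524), with every R array below every C array. Ccnd1 (cyclin D1) changed by -0.46 ± 0.14 (SE, limma adjusted p = 0.0296) with -0.66 within slide 1 and -0.24 within slide 2, and lost its call in 4 such fits. Ccnd3 (cyclin D3) was higher by 0.28 ± 0.10 (SE, limma adjusted p = 0.0479), with 0.46 within slide 1 and 0.22 within slide 2, and lost its call in 6. A second Ccnd3 probe had 0.34 (limma adjusted p = 0.0198), with every R array above every C array. Ccne1 and Ccne2, the cyclins E, were not called, with changes of -0.08 (95% interval -0.26 to 0.09) and 0.27 (95% interval -0.07 to 0.60), and Ccne2 was well above background on only 4 R and 3 C arrays.

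Cdc25a, the phosphatase that activates Cdk2, was higher by 0.30 ± 0.11 (SE, 1.24-fold, limma adjusted p = 0.0466), with 0.45 within slide 1 and 0.29 within slide 2, and lost its call in 7 of the 10 fits that left out 1 array. A second Cdc25a probe was higher by 0.54 (1.45-fold, limma adjusted p = 0.0118), with every R array above every C array. Of the restraining genes, Rbl1, a relative of the retinoblastoma protein, had -0.77, -1.15, -0.40, -0.49 and -0.42 on the R arrays and -0.10, -0.13, 0.15, 0.22 and 0.29 on the C arrays by its brightest probe. All R arrays lay below all C arrays, and the change was -0.73 ± 0.15 (SE, 1.66-fold lower, limma adjusted p = 0.00679), with -0.59 within slide 1 and -0.64 within slide 2. Its probes disagreed, since another was called higher at 0.67 (limma adjusted p = 0.00137) and the remaining one had 0.01, so the direction of Rbl1 depends on the probe, and the mean of its probes was not called at -0.017. Rb1 itself changed by -0.38 ± 0.12 (SE, limma adjusted p = 0.0285), with -0.51 within slide 1 and -0.28 within slide 2. Its call was lost in 6 fits that left out 1 array, while its other probe had 0.21 (limma adjusted p = 0.0528). E2f1, an activating E2F factor, was not called, with -0.39 (95% interval -0.73 to -0.05, adjusted p = 0.063).

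Chek1, the replication checkpoint kinase, had -1.52, -1.28, -1.47, -1.29 and -1.34 on the R arrays and -1.94, -1.86, -1.64, -1.82 and -1.77 on the C arrays by its brightest probe. The R arrays were all higher, with a change of 0.43 ± 0.08 (SE, 1.34-fold, limma adjusted p = 0.00413), and 0.51 within slide 1 and 0.40 within slide 2. A second probe was called lower at -0.36 (1.28-fold, limma adjusted p = 0.00871), and the mean of both was not called at 0.036. Of the 6 genes called higher in all classes, Cdk6 alone kept its call when each array was scaled to its median.

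**Figure D3:**
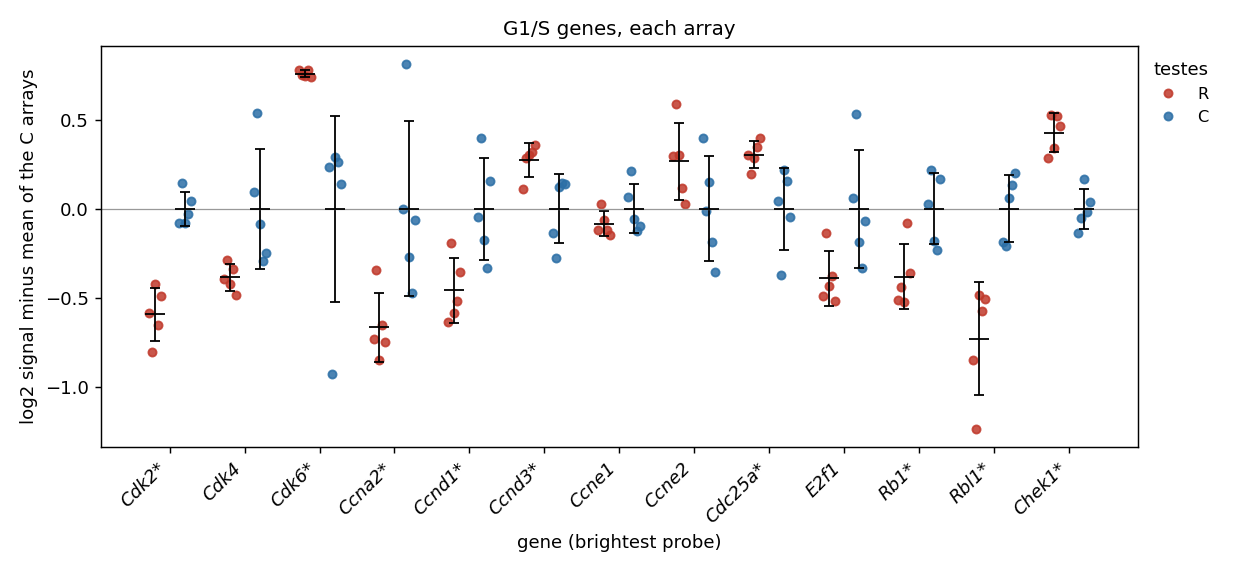
Log2 signal minus the mean of the C arrays for the 13 G1/S genes, R arrays left and C arrays right within each gene, bars showing the mean ± SD of 5 arrays and asterisks the calls. Cdk2 and Rbl1 lie wholly below the C arrays and Cdk6 and Chek1 wholly above, and C replicate 2 is the low C point of Cdk6.

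In the division class, Cdk1, the kinase that drives entry into M phase, had -0.22, -0.19, -0.21, -0.47 and -0.23 on the R arrays and 0.49, 0.72, 0.31, 0.13 and 0.34 on the C arrays. No R array reached the C range. The change was -0.66 ± 0.11 (SE, 1.58-fold lower, limma adjusted p = 0.00288), with -0.88 within slide 1 and -0.49 within slide 2.

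Its partners Ccnb1 and Ccnb2, the B cyclins, were lower too. Ccnb1 had 0.33, 0.36, 0.24, 0.29 and 0.45 on the R arrays and 0.82, 0.71, 0.60, 0.50 and 0.87 on the C arrays, without overlap, and changed by -0.37 ± 0.08 (SE, limma adjusted p = 0.00917), with -0.46 within slide 1 and -0.21 within slide 2. Its other probes had -0.27 (limma adjusted p = 0.0348) and -0.09 (limma adjusted p = 0.781), and the mean of all 3 was not called at -0.24. Ccnb2 had 4.23, 4.29, 4.24, 4.24 and 4.34 on the R arrays and 4.44, 4.61, 4.49, 4.48 and 4.47 on the C arrays, also without overlap, and changed by -0.23 ± 0.06 (SE, limma adjusted p = 0.0137), with -0.27 within slide 1 and -0.14 within slide 2. The calls of Ccnb1 and Ccnb2 were lost without R replicate 1 and C replicate 5. The promoters of Cdk1 and Ccnb2 are printed as examples that hold the CHR letters TTTGAA. They are the only division genes with such a match that were called lower. Of 16 division genes with a window, 9 (56.2%) held these letters on either strand. The share was 20.2% of all genes, 1 of 8 replication genes (12.5%) and 0 of 9 G1/S genes. The CCAAT letters were found in 14 of 16 division genes (87.5%), 6 of 8 replication genes (75%), 3 of 9 G1/S genes (33.3%) and 41.1% of all genes. Capitals mark CHR matches, and an E2F match of Cdk1 stands in lower case.
Cdk1, chr10:69352863-69353162 (minus strand): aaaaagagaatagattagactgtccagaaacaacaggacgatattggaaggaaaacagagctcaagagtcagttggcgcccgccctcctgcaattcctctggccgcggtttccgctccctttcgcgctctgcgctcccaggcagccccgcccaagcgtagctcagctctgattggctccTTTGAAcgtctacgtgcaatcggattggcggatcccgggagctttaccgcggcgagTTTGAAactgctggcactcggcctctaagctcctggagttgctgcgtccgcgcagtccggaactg
Ccnb2, chr9:70421505-70421804 (minus strand): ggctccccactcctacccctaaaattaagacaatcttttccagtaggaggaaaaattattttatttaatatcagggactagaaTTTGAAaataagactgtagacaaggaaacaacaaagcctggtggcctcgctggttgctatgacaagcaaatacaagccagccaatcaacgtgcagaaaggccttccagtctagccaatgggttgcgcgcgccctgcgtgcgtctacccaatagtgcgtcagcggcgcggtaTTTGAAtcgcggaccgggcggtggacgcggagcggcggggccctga
Of 10 genes with a CHR match, 3 were lower, 1 was higher and 6 were not called. Of the 23 genes without one, 9 were lower, 5 higher, 8 were not called and 1 was not tested. The shares over all genes tested were 20.6% lower and 14.9% higher.

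Among the spindle checkpoint genes, Mad2l1, which holds back anaphase, had -0.19, -0.19, -0.03, -0.14 and -0.17 on the R arrays and 0.57, 1.20, 0.49, 0.51 and 0.85 on the C arrays. The groups did not overlap, and the change was -0.87 ± 0.13 (SE, 1.82-fold lower, limma adjusted p = 0.00217), with a second probe at -0.97. It was -1.03 within slide 1 and -0.78 within slide 2. Bub1 and Bub1b, kinases of the same checkpoint, were not called at -0.21 (95% interval -0.42 to 0.01) and -0.03 (95% interval -0.17 to 0.12). Ttk, which recruits them, was not called at 0.16 (95% interval 0.03 to 0.29, adjusted p = 0.0553).

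Wee1, the kinase that inhibits Cdk1, had -1.18, -1.09, -1.10, -1.11 and -0.96 on the R arrays and -0.55, -0.41, -0.58, -0.76 and -0.63 on the C arrays. All R arrays were lower. The change was -0.50 ± 0.08 (SE, 1.42-fold lower, limma adjusted p = 0.00217), with -0.64 within slide 1 and -0.31 within slide 2, and a second probe had 0.13 (limma adjusted p = 0.166). Cdc25c, which opposes Wee1, was not called at 0.20 (95% interval -0.12 to 0.52). Cdc25b was well above background on 0 of the 10 arrays, and it was not tested.

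Of the Polo and Aurora kinases, Plk1 and Aurkb were called, in opposite directions. Aurkb, of the chromosomal passenger complex, had -1.30, -1.38, -0.97, -1.24 and -1.01 on the R arrays and -0.79, -0.80, -0.71, -0.80 and -0.80 on the C arrays, with no overlap. It changed by -0.40 ± 0.09 (SE, 1.32-fold lower, limma adjusted p = 0.0078), with -0.43 within slide 1 and -0.24 within slide 2, and a second probe had a change of -0.40. Plk1 was higher by 0.28 ± 0.09 (SE, limma adjusted p = 0.0374), with 0.25 within slide 1 and 0.29 within slide 2, a call lost in 7 fits that left out 1 array and with slide as a block. Aurka, of the spindle poles, and Aurkc, the Aurora kinase of meiosis, were not called at 0.10 (95% interval -0.06 to 0.26) and -0.02 (95% interval -0.15 to 0.10).

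No call was made for Ccna1, the germ cell cyclin A needed in male meiosis, at -0.16 (95% interval -0.32 to -0.01, adjusted p = 0.0754). Cdc20, the activator of the anaphase-promoting complex, was at -0.06 (95% interval -0.24 to 0.12), and Top2a, which untangles DNA, was at -0.21 (95% interval -0.39 to -0.02, adjusted p = 0.0723). A second probe was called lower for Cdc20 (-0.28) and for Top2a (-0.31). Mki67, a marker of proliferating cells, was at 0.19 (95% interval -0.03 to 0.41), and Birc5, of the passenger complex, was at 0.11 (95% interval -0.01 to 0.23), with every R array above every C array.

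**Figure D4:**
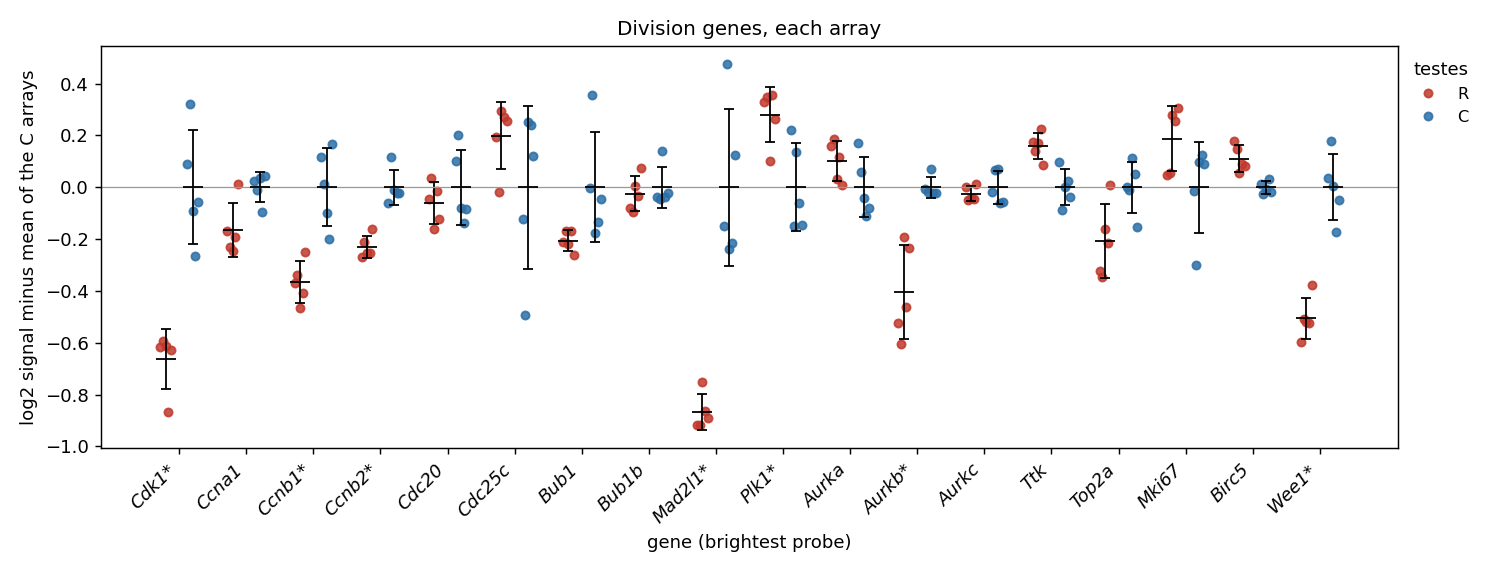
Log2 signal minus the mean of the C arrays for the 18 tested division genes, R arrays left and C arrays right within each gene, bars showing the mean ± SD of 5 arrays and asterisks the calls. Cdk1, Ccnb1, Ccnb2, Mad2l1, Aurkb and Wee1 lie wholly below the C arrays; most other genes overlap.

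Several probes measured most genes. Of 70 probes for the 41 genes, 66 were tested, and 29 were lower, 11 higher and 26 not called, against 38.6% of all probes called in either direction. Of 21 genes with more than 1 tested probe, 14 had every probe of 1 sign. In Chek1 and Rbl1, probes were called in opposite directions.

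Other genes of the same pathways were counted in wider lists, beside 20.6% lower and 14.9% higher over all genes tested. The genes named from each list are those of smallest p. In a wider replication list of 44 genes, 14 were lower (31.8%) and 2 higher (4.55%), with a median change of -0.14. Of these, Rpa3, of the single-strand binding complex, was 2.49-fold lower (limma adjusted p = 0.000987), Pole2, a polymerase epsilon subunit, 1.77-fold (limma adjusted p = 0.00276), Orc6, of the origin recognition complex, 1.58-fold (limma adjusted p = 0.0024) and Cdc45, the helicase cofactor, 1.46-fold (limma adjusted p = 0.00209). In a wider G1/S list, 10 of 29 tested genes were lower (34.5%) and 3 higher (10.3%), with a median of -0.16. Tfdp1, the E2F partner, was 1.84-fold lower (limma adjusted p = 0.00113), and Mycn, a Myc family transcription factor, 2.13-fold lower (limma adjusted p = 0.00282). Lin9, of the DREAM complex, and Cdk7, which activates other cyclin-dependent kinases, were each 1.50-fold lower. In a wider division list, 17 of 62 were lower (27.4%) and 7 higher (11.3%), with a median of -0.10. Ect2, which acts in cytokinesis, was 1.77-fold lower (limma adjusted p = 0.000987) and Ccnb3 1.96-fold lower (limma adjusted p = 0.00198). Anln, of the cytokinetic ring, and Zwint, of the kinetochore, were 1.50-fold and 1.60-fold lower.

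Marker genes of several testis cell types were also called, beside 20.6% lower and 14.9% higher over all genes tested. Of 11 tested genes of differentiating spermatogonia and meiotic entry, 8 were lower and 1 higher (median -0.56), and their mean log2 signal was 0.13 to 0.24 on the R arrays and 0.55 to 0.90 on the C arrays, with summed scaled signals of 39.8 to 43.9 on the R arrays and 42.3 to 47.5 on the C arrays. Ythdc2 and Meioc, of the switch to meiosis, changed by -0.97 and -0.52. Sertoli genes were lower in 16 of 19 tested (median -0.51), with Ctsl at -1.02 and Tjp1 at -0.44, and with mean log2 signals of 1.18 to 1.37 on the R arrays and 1.53 to 2.27 on the C arrays. Their summed signals were 210 to 233 on the R arrays and 279 to 450 on the C arrays. The replication genes averaged 0.58 to 0.72 on the R arrays and 0.88 to 1.47 on the C arrays. The division genes averaged 1.73 to 1.80 on R and 1.85 to 1.94 on C. The G1/S genes overlapped, at -0.51 to -0.39 on R and -0.41 to -0.23 on C. Summed signals overlapped for G1/S (29.5 to 32.4 on R, 27.3 to 30.6 on C) and division (126 to 134, 128 to 139). Replication sums did not overlap, at 36.4 to 38.8 on R and 40.7 to 50.7 on C. Undifferentiated spermatogonia had 1 gene lower and 1 higher of 9 tested (median -0.16), with sums of 18.5 to 21.4 on the R arrays and 21.4 to 37.5 on the C arrays, and Nanos2, Ret and Eomes of that list were not tested.

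For later germ cells, the medians lay near that of all genes. Spermatocyte genes had 5 of 14 lower (median -0.04), with mean log2 signals of 2.83 to 2.87 on the R arrays and 2.98 to 3.16 on the C arrays. Their sums were 401 to 421 on the R arrays and 397 to 444 on the C arrays. Round spermatid genes were lower in 2 of 13 (median -0.06), with sums of 166 to 196 on the R arrays and 163 to 207 on the C arrays. Elongating spermatid genes had 2 of 12 lower and 1 higher (median 0.01), with sums of 1494 to 1674 on the R arrays and 1448 to 1699 on the C arrays.

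Among the somatic cells, Leydig genes were lower in 6 of 13 (median -0.40), with sums of 25.9 to 32.8 on the R arrays and 30.8 to 54.0 on the C arrays. Macrophage genes were lower in 6 of 12 and higher in 1 (median -0.55), although their sums ran the other way, at 24.3 to 33.3 on the R arrays and 12.6 to 19.7 on the C arrays. Endothelial genes were higher in 4 of 9 (median 0.45), with sums of 3.73 to 4.48 on the R arrays and 2.76 to 3.41 on the C arrays. Peritubular myoid genes had 2 of 8 lower and 1 higher (median -0.05; sums 32.8 to 42.6 on the R arrays and 35.3 to 56.2 on the C arrays), and blood genes had 4 of 6 lower (median -0.92; sums 5.22 to 13.1 on the R arrays and 9.16 to 18.1 on the C arrays). Cd163 of the macrophages, Tie1 of the endothelium and Slc4a1 of blood were too dim to be tested. The 10 adipocyte genes, listed after the data had been seen, gave mean log2 signals of -0.38 on R replicate 2 and -2.02 to -1.70 on the other R arrays, against -0.88 on C replicate 2 and -3.36 to -2.49 on the other C arrays, and 0 of the 10 were called in limma (2 at an unadjusted p under 0.05). The part of any of these cell types in the results on the cell cycle genes was not tested.

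**Figure D5:**
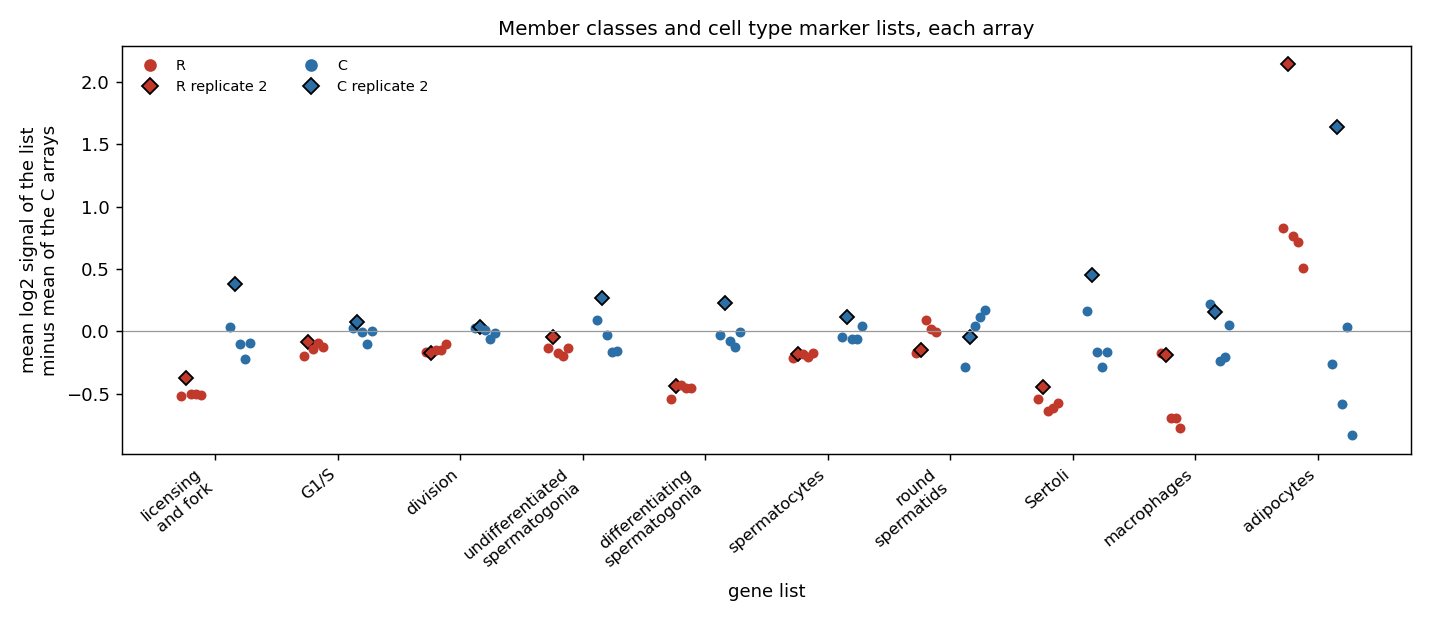
Mean log2 signal of each gene list minus the mean of the C arrays, R arrays left and C arrays right, with diamonds for R replicate 2 and C replicate 2. Of the lists drawn, replication, division, differentiating spermatogonia, spermatocytes and Sertoli have every R array below every C array; in the other lists drawn the groups overlap.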

How the data were processed

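Per the labels, RNA of single testes was extracted with either of 2 column kits, and the kit behind each testis is not stated. The authors deposited scanner files, made per the submitters' processing notes with version 12.0.3.1 of Agilent Feature Extraction, whose processed intensity is background-subtracted and not normalised between arrays, per the file headers. The headers name mm9. A table the authors deposited covers 2266 probes with p-values, q-values, log2 ratios and scaled intensity values, the last being processed intensity times 1 constant per array. A further 10 columns of per-sample values were not used.

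Control and outlier spots were left out, and spots of a probe were averaged. The 75th percentile over non-control spots was subtracted from log2 processed intensity on each array. Groups were compared by 2-sided limma models (version 3.58.1, R 4.3.3) with Benjamini-Hochberg adjustment. The test took 33852 of 56605 probes, those well above background on 5 or more of 10 arrays, after 2 were dropped for a missing value. Accessions matched a RefSeq table of GRCm38.p6 for 33767 probes. In data simulated with independent noise for these 33852 probes, 77% of 2-fold and 95% of 4-fold changes were called, as were 11 of 33652 unchanged probes. Nearly all simulated probes were thus unchanged, whereas 38.6% of the real probes were called, so these shares need not hold for the real data. Normexp used spot medians, since the files hold no spot means. The rule for named genes was all 41 genes, up to 4 genes of smallest p of each wider list and up to 2 of each marker list. The genes, lists and tests were chosen with earlier results of these data known. Alternatives covered background, scaling, filter, variance, slide, probe rule and samples.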

Additional observations from a re-analysis of the deposited data

Results flagged for a closer look

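In 7 of 82 groups of 5 arrays, 1 array stood far from the others by Dixon's test, and chance gives about 1 in 20. R replicate 2 was high for Mcm2 at -1.91 (other R arrays -2.23 to -2.14), Mcm4 at -0.070 (-0.30 to -0.27) and Cdt1 at -1.38 (-1.71 to -1.61). C replicate 2 was low for Cdk6 at -2.88 (other C arrays -1.81 to -1.66). R replicate 4 was low for Cdk1 at -0.47 (-0.23 to -0.19). C replicate 3 was high for Bub1b at 0.10 (-0.09 to -0.06) and Aurkb at -0.71 (-0.80 to -0.79). The causes were not tested.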

How the results depend on the processing

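No paired analysis was possible because the labels give no pairing of R with C animals and no replicate numbers. Replicate numbers here only name the arrays within a group. Gene names from the scanner files could not be used, because the files hold no gene name column, so that alternative was not run. Leaving out 1 array gave 15 to 20 genes lower and 2 to 6 higher, with class medians of -0.61 to -0.42 (replication), -0.44 to -0.25 (G1/S) and -0.14 to -0.076 (division). The array median as reference gave 24 lower and 1 higher (medians -0.75, -0.59 and -0.32), beside 6241 lower and 909 higher of all 16739 genes. Without a filter 15 were lower and 2 higher (division -0.061). The authors' factors gave medians of -0.32 (G1/S) and -0.050 (division), and array weights -0.23 and -0.078. Slide 1 gave -0.82, -0.51 and -0.21. Slide 2, whose 1 R array is assumed to vary like the C arrays and which says nothing of stability, gave 0 lower and 0 higher in limma (14 at an unadjusted p under 0.05), with -0.39, -0.24 and 0.014. The mean of a gene's probes gave -0.083 (G1/S) and -0.17 (division). Without R replicate 1 and C replicate 5, 1 gene was higher and G1/S was -0.31. The deposited table's grouping gave 0 lower and 0 higher (3 at an unadjusted p under 0.05), with -0.38, -0.11 and -0.078. It also gave 0 lower and 0 higher over all genes tested. Signs turned with the array median for Mcm7 (-0.014), Cdc6 (-0.17), Cdc25c (-0.0064), Aurka (-0.11), Ttk (-0.047), Mki67 (-0.018) and Birc5 (-0.10). They turned for Cdc6 with quantile normalisation (-0.000614), the mean of probes (-0.047), without the 2 arrays (-0.0091) and with the table's grouping (-0.049), and for Ccne2 with normexp (-0.003633). They also turned for Cdc20 with the authors' factors (0.001513) and array weights (0.019), Bub1b with the factors (0.037), the slide block (0.011), slide 2 (0.046) and without C replicate 3 (-0.050 to 0.010 with 1 array left out), Aurkc with the factors (0.038) and slide 2 (0.029), and Ccna1 (0.020) and Top2a (0.0073) on slide 2. Of these genes, Mcm7 alone was called. Each of the other alternatives gave 17 to 21 lower and 4 to 8 higher. Scaling by the percentile over probe means, chosen after seeing the data, gave 19 lower and 4 higher. The causes were not tested.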

Other observations

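The authors' deposited table lists 7 probes of 6 of the 41 genes, all with a q-value of 0.515, namely Ccna2 (log2 ratio -0.27), Ccnd3 (0.31 and 0.35), Cdc20 (-0.15), Chek1 (0.37), Ttk (0.66) and Wee1 (0.19). The log2 ratios in the authors' deposited table follow its own grouping of the arrays. Its Ccna2, Cdc20 and Wee1 entries are not the brightest probes used above, and that Wee1 probe changed by 0.13 here. Its Ttk entry is a probe that was not found through the accession.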
